A study of Homo sapiens with 4 samples.

Results

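The serpins are a family of protease inhibitors that share one fold, and their genes are sorted into clades by a letter of the symbol. The genes described here are those whose symbol reads SERPIN, a letter from A to I and a number, and that have a probe set annotated with that symbol alone. The rule gave 29 of the 17958 genes tested: 10 of clade A, 10 of clade B and 9 of clades C to I, each with 1 probe set. Serpin-symbol genes outside the rule were not analysed here. A probe set that carries the symbols of both SERPINB3 and SERPINB4 was left out by the rule.

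The samples were 2 arrays of HCT116 cells that had received 5-aza-2'-deoxycytidine and 2 arrays of HCT116 cells given vehicle. HCT116 is an established line from a human colorectal carcinoma. The drug, also called decitabine, resembles cytosine, enters replicating DNA and traps DNA methyltransferases there. It was added at 1 µM 24 hours after seeding and again 48 hours after the first dose, and RNA of both groups was taken at 72 hours. The groups are called 5aza and vehicle below. The labels do not say which vehicle was used or whether replicates 1 and 2 came from separate cultures, so p-values measure the spread between these arrays, which may be technical. In bulk RNA of this kind, fewer cells that express a gene and less RNA per cell cannot be told apart.

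An inhibitory serpin offers an exposed reactive loop to a serine or cysteine protease, and cleavage of that loop locks the protease in a covalent complex with the inhibitor. Clade A holds mostly secreted plasma proteins made by the liver, including inhibitors of leukocyte proteases and hormone carriers that inhibit nothing. Clade B serpins mostly lack a signal peptide and act inside cells of epithelia and blood. The other clades hold regulators of thrombin, plasmin and complement, as well as SERPINF1 and SERPINH1, which do not inhibit proteases.

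Levels are log2 values from the RMA method, and a change is the mean of the 5aza arrays minus that of the vehicle arrays. Levels of different probe sets cannot be set against each other, so each comparison of levels below is within a gene or a gene list. A level of 5 or 8 named below serves only to sort genes for description. A gene is called higher or lower at an adjusted p under 0.05 in limma's test with Benjamini-Hochberg adjustment over all 17958 genes. Pearson's correlation over all probe sets was 0.992 between the 5aza arrays, 0.995 between the vehicle arrays, and between 0.966 and 0.971 for pairs of 1 array from each group. The median gene changed by -0.07, and the median SE of a change was 0.13. All 8 epithelial markers fixed for the check of the line were measured, and KRT8, a simple-epithelium keratin, stood at 13.24 and 13.20 on the 5aza arrays, against 13.03 and 12.99 on the vehicle arrays. Of these markers 1 was called higher (KRT18) and 4 were called lower (ELF3, CLDN4, EPCAM and CLDN7). Of all genes, 12.4% were called higher and 15.6% lower. KRT18 lost its call without 5aza replicate 2, vehicle replicate 1 or vehicle replicate 2, and CLDN7 without either vehicle array. With the arrays centred on 21 housekeeping genes 2 markers were higher and 2 lower, EPCAM and CLDN7 losing their calls.

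A few serpins changed, in both directions, and most were not called. Of the 29 genes, 5 were called higher in 5aza cells (17.2%), against 12.4% of all genes, and 3 were called lower (10.3%), against 15.6% of all genes. Both shares lay near those of the whole table. Of the 21 uncalled serpins, 13 stayed under 5 on every array, and whether these exceed background is unknown. SERPIND1 had the largest rise of the family at 8.69-fold, followed by SERPINB8 at 3.36-fold, and SERPINA3 had the largest fall at 2.08-fold. The median change over the family was -0.06, beside -0.07 over all genes, and 14 changes were above 0 and 15 below. With the arrays centred on 21 housekeeping genes, which raised every change by 0.27, these medians were 0.21 and 0.20, and 23 changes were above 0 and 6 below. For 14 serpins (48.3%) the 5aza arrays lay wholly above or wholly below the vehicle arrays, as they did for 65.8% of all genes. They lay above for 7 serpins, beside 26.3% of all genes, and below for 7, beside 39.5% of all genes.

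**Figure D1:**
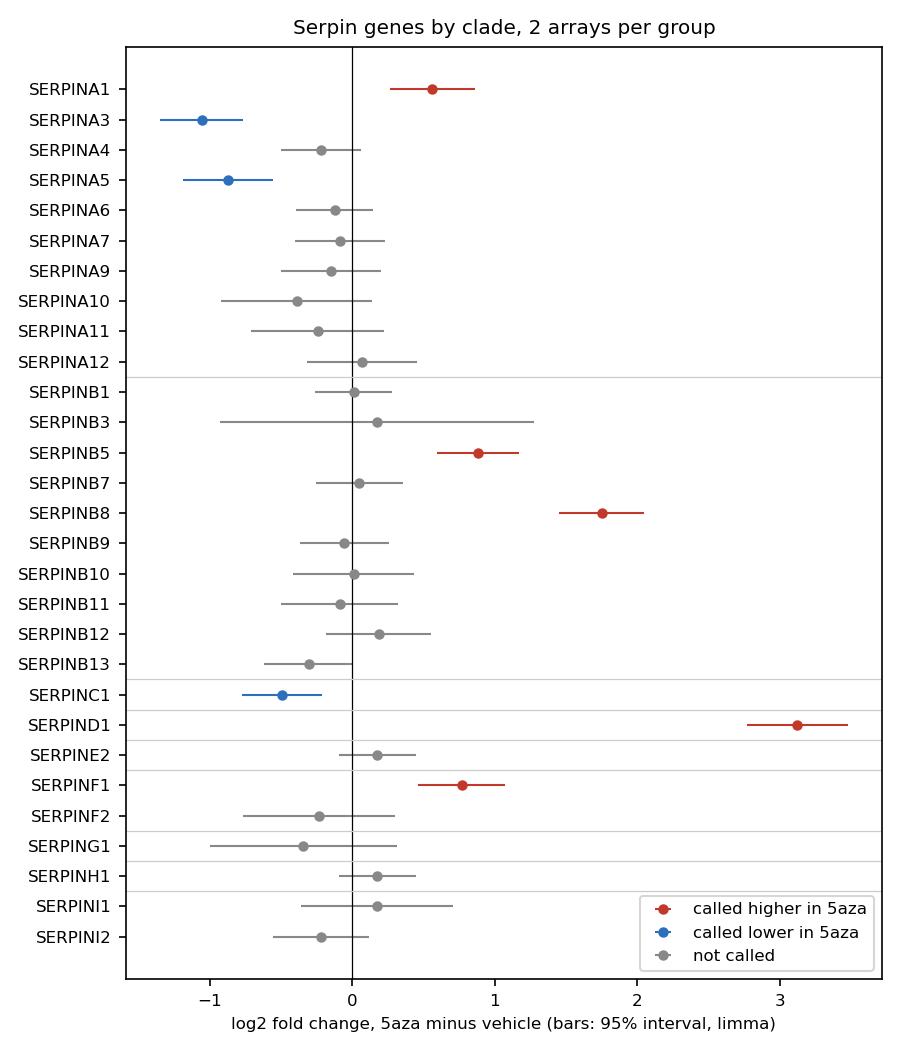
Change of each of the 29 serpins, as log2 fold change of 5aza minus vehicle (horizontal axis; points are estimates, bars 95% intervals from limma, 2 arrays per group), ordered by clade with lines between clades. SERPIND1 at 3.12 and SERPINB8 at 1.75 lie far to the right, SERPINA3 at -1.06 and SERPINA5 at -0.87 lie to the left, and SERPINB3 has the widest interval.

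The counts by clade stand beside 12.4% of all genes called higher, 15.6% called lower and a median change of -0.07. By clade, A had 1 gene called higher and 2 called lower of 10, with a median change of -0.18. Clade B had 2 called higher and 0 called lower of 10, with a median of 0.03 (limma gave 0 clade B genes lower at an unadjusted p under 0.05 as well). Clades C to I had 2 called higher and 1 called lower of 9, with a median of 0.17. Among the uncalled genes, 7 of clade A, 5 of clade B and 1 of clades C to I stayed under 5 on every array. Changes were below 0 for 8 of the 10 clade A genes and above 0 for 7 of the 10 clade B genes. The first of these depended on the scaling: with the housekeeping centring 3 clade A genes were below 0 and 9 clade B genes above, and the clade A median was 0.09. With 1 or 2 genes in each of clades C to I, no level of response can be given for those clades. No test of a difference between clades was made, since genes of a clade are not replicates.

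The upstream sequence of 5 serpins is shown because the drug acts on cytosine methylation, which in mammals sits mainly on CpG dinucleotides. Each is the window from 250 bases before to 50 bases after a RefSeq transcript start (GRCh38.p14), written 5′ to 3′ on the gene's strand, with CpG in capitals. SERPIND1 (chr22:20773863-20774162, plus strand) and SERPINB8 (chr18:63969831-63970130, plus strand) had the largest rises, SERPINB5 (chr18:63476708-63477007, plus strand) also rose, SERPINA3 (chr14:94612141-94612440, plus strand) had the largest fall, and SERPINB1 (chr6:2841814-2842113, minus strand) is a CpG-rich member that was not called.
SERPIND1: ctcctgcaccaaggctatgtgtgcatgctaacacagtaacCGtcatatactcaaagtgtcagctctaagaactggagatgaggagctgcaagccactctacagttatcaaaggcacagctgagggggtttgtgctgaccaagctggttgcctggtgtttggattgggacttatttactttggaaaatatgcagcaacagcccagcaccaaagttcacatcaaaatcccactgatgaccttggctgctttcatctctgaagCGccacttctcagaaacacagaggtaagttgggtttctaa
SERPINB8: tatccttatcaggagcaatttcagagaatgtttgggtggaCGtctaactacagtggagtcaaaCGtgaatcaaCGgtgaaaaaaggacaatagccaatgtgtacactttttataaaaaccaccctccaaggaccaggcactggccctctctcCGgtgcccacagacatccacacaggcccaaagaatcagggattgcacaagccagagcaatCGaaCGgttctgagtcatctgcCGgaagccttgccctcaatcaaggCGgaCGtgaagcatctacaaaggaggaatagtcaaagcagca
SERPINB5: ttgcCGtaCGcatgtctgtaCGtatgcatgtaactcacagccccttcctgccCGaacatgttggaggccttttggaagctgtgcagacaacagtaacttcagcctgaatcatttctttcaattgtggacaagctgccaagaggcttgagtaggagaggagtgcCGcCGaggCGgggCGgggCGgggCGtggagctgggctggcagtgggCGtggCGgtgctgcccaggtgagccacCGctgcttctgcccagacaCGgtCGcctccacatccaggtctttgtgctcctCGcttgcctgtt
SERPINA3: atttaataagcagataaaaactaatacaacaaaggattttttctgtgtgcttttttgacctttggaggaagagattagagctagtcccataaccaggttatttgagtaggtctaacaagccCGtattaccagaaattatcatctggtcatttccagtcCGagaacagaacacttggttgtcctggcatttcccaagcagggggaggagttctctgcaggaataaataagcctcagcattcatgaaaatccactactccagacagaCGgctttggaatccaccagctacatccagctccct
SERPINB1: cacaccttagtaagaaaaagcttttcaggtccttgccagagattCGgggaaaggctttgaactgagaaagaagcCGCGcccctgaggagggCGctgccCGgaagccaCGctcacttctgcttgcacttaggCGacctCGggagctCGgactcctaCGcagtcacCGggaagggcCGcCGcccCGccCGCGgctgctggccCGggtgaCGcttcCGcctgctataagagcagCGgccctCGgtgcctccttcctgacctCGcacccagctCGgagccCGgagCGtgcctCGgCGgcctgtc
The SERPIND1 window holds 2 CpG, that of SERPINB8 9, that of SERPINB5 16, that of SERPINA3 3 and that of SERPINB1 27.

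In the other clades the change of SERPIND1, on chromosome 22, was the widest. SERPIND1 encodes heparin cofactor II, a plasma inhibitor of thrombin that is activated by glycosaminoglycans. Its level was 7.33 and 7.12 on the 5aza arrays, against 3.96 and 4.25 on the vehicle arrays. Both 5aza arrays lay far above both vehicle arrays. The change was 3.12 (SE 0.15, limma adjusted p = 2.57e-05), and it ran from 2.98 to 3.39 over all alternatives tried. SERPIND1 lies inside PI4KA, a phosphatidylinositol kinase gene on the opposite strand, according to the RefSeq gene and promoter tables. PI4KA stood at 9.23 and 9.25 on the 5aza arrays, against 9.28 and 9.47 on the vehicle arrays, and was not called (change -0.14, 95% interval -0.43 to 0.16, limma adjusted p = 0.458).

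SERPINF1, on chromosome 17, encodes pigment epithelium-derived factor, a secreted antiangiogenic protein that does not inhibit proteases. It stood at 6.79 and 6.57 on the 5aza arrays, against 5.93 and 5.89 on the vehicle arrays. All 5aza values were above all vehicle values, a rise of 1.70-fold (change 0.77, SE 0.13, limma adjusted p = 0.00557). Its neighbour SERPINF2 encodes alpha-2-antiplasmin, the main plasma inhibitor of plasmin. SERPINF2 stood at 5.19 and 5.27 on the 5aza arrays, against 5.11 and 5.82 on the vehicle arrays, where the vehicle arrays enclosed the 5aza arrays, and it was not called (change -0.23, 95% interval -0.77 to 0.30).

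SERPINC1, on chromosome 1, encodes antithrombin, the main plasma inhibitor of thrombin and factor Xa. It stood at 3.74 and 3.77 on the 5aza arrays, against 4.17 and 4.32 on the vehicle arrays. The groups did not overlap, and the gene was called lower (change -0.49, SE 0.12, limma adjusted p = 0.0227). SERPINC1 stayed under 5 on every array, among the dimmest 33.3% of genes, and whether it exceeds background is unknown. The call was lost without vehicle replicate 1 (adjusted p = 0.0990), without vehicle replicate 2 (adjusted p = 0.212) and with the arrays centred on housekeeping genes (change -0.22, adjusted p = 0.467).

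SERPINE2, SERPING1, SERPINH1, SERPINI1 and SERPINI2 were not called. SERPINE2, on chromosome 2, encodes protease nexin-1, an inhibitor of thrombin and urokinase at the cell surface. It stood at 10.21 and 10.19 on the 5aza arrays, against 10.07 and 9.99 on the vehicle arrays (change 0.18, 95% interval -0.10 to 0.45). SERPINH1, on chromosome 11, encodes HSP47, the collagen chaperone of the endoplasmic reticulum. It stood at 11.43 and 11.49 on the 5aza arrays, against 11.28 and 11.29 on the vehicle arrays (change 0.18, 95% interval -0.09 to 0.44). For both genes the 5aza arrays lay just above the vehicle arrays, and the intervals exclude a 2-fold change in either direction.

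SERPING1, also on chromosome 11, encodes the C1 inhibitor of complement and contact proteases. It stood at 6.74 and 7.53 on the 5aza arrays, against 7.23 and 7.73 on the vehicle arrays. The arrays overlapped, with a wide interval (change -0.34, 95% interval -0.998 to 0.31), and without 5aza replicate 2 the gene was called lower (change -0.74, limma adjusted p = 0.0484). SERPINI1, on chromosome 3, encodes neuroserpin, an inhibitor of tissue plasminogen activator in the nervous system, and SERPINI2 lies near it. SERPINI1 stood at 7.27 and 6.73 on the 5aza arrays, against 7.06 and 6.59 on the vehicle arrays, so the replicates differed by more than the groups (change 0.17, 95% interval -0.36 to 0.70). SERPINI2 was at 3.89 or lower on every array, with a change of -0.22 (95% interval -0.55 to 0.12).

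Clade B genes lie on chromosomes 6 and 18. SERPINB8, on chromosome 18, encodes an intracellular serpin that can inhibit the proprotein convertase furin. It stood at 9.95 and 9.79 on the 5aza arrays, against 8.18 and 8.06 on the vehicle arrays. The groups lay far apart relative to their replicates, a rise of 3.36-fold (change 1.75, SE 0.12, limma adjusted p = 0.000154), and the change ran from 1.67 to 2.02 over all alternatives. SERPINB5, on the same chromosome, encodes maspin, a protein of epithelia known as a tumor suppressor that does not act as a protease inhibitor. It stood at 10.54 and 10.39 on the 5aza arrays, against 9.61 and 9.55 on the vehicle arrays. All 5aza values were above all vehicle values, a rise of 1.84-fold (change 0.88, SE 0.12, limma adjusted p = 0.00252).

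**Figure D2:**
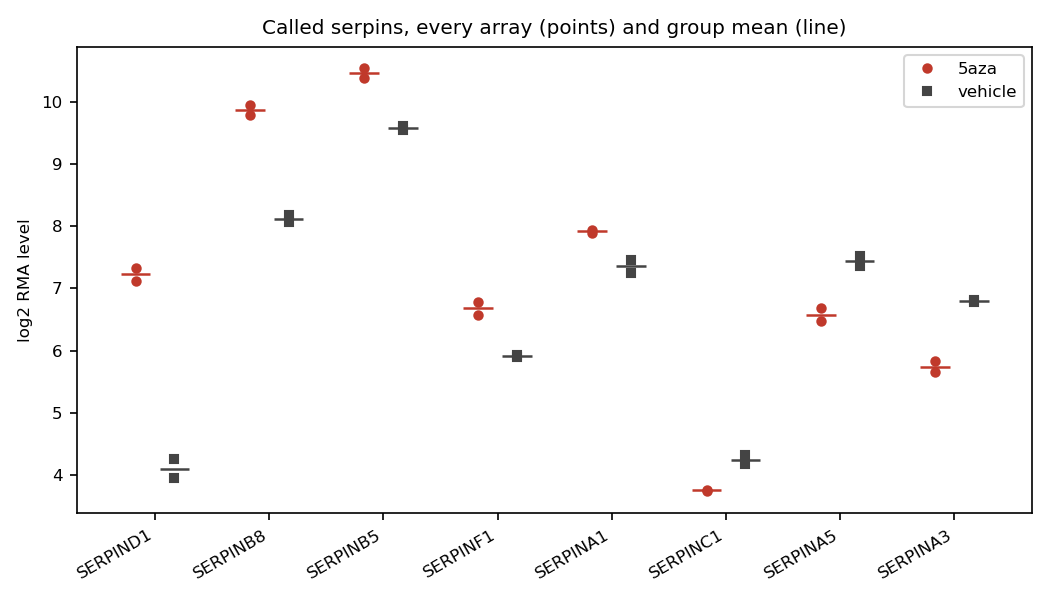
Log2 RMA level (vertical axis) of the 8 called serpins on every array, 5aza as red circles and vehicle as dark squares, with a line at each group's mean of 2 arrays. SERPIND1 (7.33 and 7.12 in 5aza, 3.96 and 4.25 in vehicle) shows the widest gap. The groups do not overlap for any of the 8 genes, which were picked by their calls on these same arrays. Over all genes, 65.8% do not overlap. Levels can be compared between groups but not between genes.

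The chromosome 6 genes of clade B were not called. SERPINB1, an inhibitor of neutrophil elastase and cathepsin G, stood at 10.91 and 10.91 on the 5aza arrays, against 10.93 and 10.88 on the vehicle arrays (change 0.01, 95% interval -0.26 to 0.28). SERPINB9, the granzyme B inhibitor that protects cytotoxic lymphocytes and some tumor cells, stood at 10.46 and 10.27 on the 5aza arrays, against 10.51 and 10.34 on the vehicle arrays (change -0.06, 95% interval -0.37 to 0.26). The arrays of both genes overlapped, and the intervals exclude a 2-fold change.

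The remaining 6 clade B genes lie on chromosome 18 and were not called. SERPINB3, squamous cell carcinoma antigen 1 and an inhibitor of cysteine cathepsins, stood at 3.77 and 5.39 on the 5aza arrays, against 4.19 and 4.62 on the vehicle arrays. The 5aza arrays enclosed the vehicle arrays, and the interval was the widest of the family (change 0.17, 95% interval -0.93 to 1.28). Without 5aza replicate 1 the gene was called higher (change 0.98, limma adjusted p = 0.0122). Its sequence is close to that of SERPINB4, and hybridization between them was not assessed. SERPINB7, SERPINB10, SERPINB11, SERPINB12 and SERPINB13 stayed under 5 on every array, with changes between -0.30 (SERPINB13) and 0.19 (SERPINB12). SERPINB7 (megsin), SERPINB12 and SERPINB13 (headpin) are known from squamous epithelia and SERPINB10 (bomapin) from bone marrow cells. Which of these levels exceed background is unknown, because the deposited values come without detection calls.

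Of clade A, 9 genes lie together on chromosome 14 and SERPINA7 on the X chromosome. SERPINA3 encodes alpha-1-antichymotrypsin, an acute-phase inhibitor of cathepsin G and chymase. It stood at 5.65 and 5.83 on the 5aza arrays, against 6.78 and 6.81 on the vehicle arrays. The fall was 2.08-fold (change -1.06, SE 0.12, limma adjusted p = 0.00130), and the change ran from -1.15 to -0.79 over all alternatives. SERPINA5 encodes the protein C inhibitor, which also acts on urokinase and tissue kallikreins. It stood at 6.68 and 6.47 on the 5aza arrays, against 7.37 and 7.53 on the vehicle arrays. The groups did not overlap, a fall of 1.83-fold (change -0.87, SE 0.13, limma adjusted p = 0.00398).

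SERPINA1, which encodes alpha-1-antitrypsin, the main plasma inhibitor of neutrophil elastase, moved the other way. It stood at 7.94 and 7.89 on the 5aza arrays, against 7.25 and 7.45 on the vehicle arrays, a rise of 1.48-fold (change 0.56, SE 0.12, limma adjusted p = 0.0164). The call was lost without vehicle replicate 1 (change 0.47, adjusted p = 0.171) and without vehicle replicate 2 (change 0.66, adjusted p = 0.0561).

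The other 7 clade A genes stayed under 5 on every array and were not called. They were SERPINA4 (kallistatin, an inhibitor of tissue kallikrein), SERPINA6 (the corticosteroid carrier of plasma), SERPINA7 (the thyroxine carrier), SERPINA9 (a serpin of germinal centre B cells), SERPINA10 (the protein Z-dependent inhibitor of factor Xa), SERPINA11 and SERPINA12 (vaspin, an adipokine). Their changes lay between -0.39 (SERPINA10) and 0.07 (SERPINA12). Without vehicle replicate 1, SERPINA10 was called lower (change -0.73, limma adjusted p = 0.0456), its vehicle arrays being 4.28 and 4.96. Angiotensinogen (AGT), a clade A serpin by sequence whose symbol is outside the rule, stood at 3.80 and 3.87 on the 5aza arrays, against 4.05 and 3.97 on the vehicle arrays, and was not called (change -0.17, limma adjusted p = 0.319).

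In the chromosome 14 cluster 1 gene was called higher and 2 lower of 9, beside 12.4% and 15.6% of all genes. The 2 falls, SERPINA5 and SERPINA3, stood next to each other at one end, beside SERPINA4 (change -0.22), which was not called. Whether neighbouring serpins changed together was not tested. Of the 2 nearest protein-coding genes on each side, PPP4R4, a regulatory subunit of protein phosphatase 4, fell (change -0.86, SE 0.14, limma adjusted p = 0.00496) and DICER1, the microRNA-processing nuclease, rose (change 0.50, SE 0.11, limma adjusted p = 0.0169). The call of DICER1 was lost when either vehicle array was left out, its adjusted p reaching 0.143. IFI27L2 (change 0.48, limma adjusted p = 0.0784) and the homeobox gene GSC (change -0.04) were not called. IFI27L2 stayed uncalled in 9 of 12 alternatives and was called higher in the rest, its change running from 0.30 to 0.75.

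In the chromosome 18 cluster 2 of 8 tested serpins were called higher and 0 lower, beside 12.4% and 15.6% of all genes. The 2 rises, of SERPINB5 and SERPINB8, stood at its opposite ends, and the 6 tested serpins between them were not called. The flanking genes KDSR, VPS4B, CDH7 and CDH19 were not called, with changes between -0.26 (CDH19) and -0.00347 (KDSR). In the chromosome 6 cluster 2 of 3 serpins were tested and 0 were called, where 28% of all genes were called in either direction. The flanking genes MYLK4, WRNIP1 and NQO2 were not called either (changes -0.34 to 0.34). RIPK1, beside NQO2, was not analysed here.

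**Figure D3:**
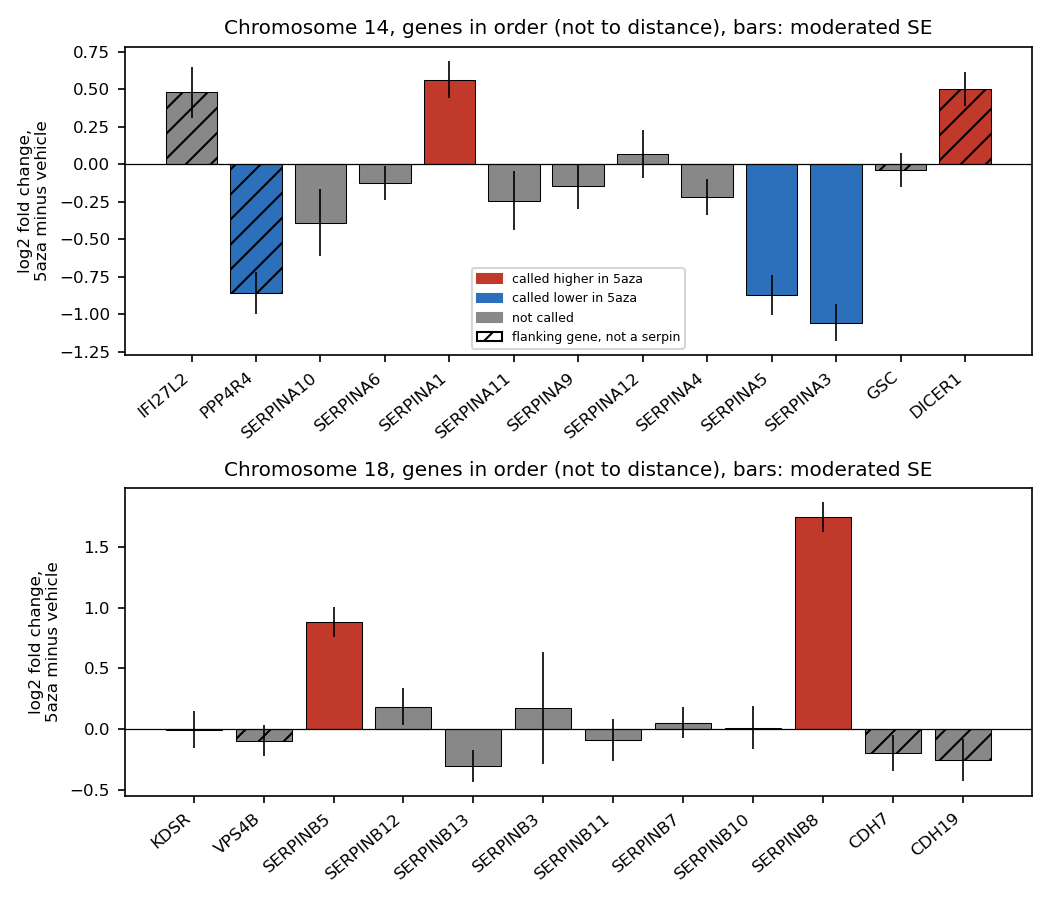
Log2 fold change of 5aza minus vehicle (vertical axis, bars with moderated SE) for the tested genes of the chromosome 14 and chromosome 18 serpin clusters in genome order, with the 2 nearest protein-coding genes on each side hatched. Red bars were called higher, blue lower and grey not called. SERPINA5 (-0.87) and SERPINA3 (-1.06) stand side by side, while SERPINB5 (0.88) and SERPINB8 (1.75) stand at opposite ends with uncalled genes between them.

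Serpins had fewer CpG-dense promoter windows than most genes. A gene was counted as CpG-dense where at least 1 of its windows had a C plus G content of 50% or more and an observed over expected CpG ratio of 0.6 or more, CpG being counted as the letters CG, which read the same on both strands. Windows were found for 23 serpins, of which 5 were CpG-dense (21.7%), against 9797 of the 13861 genes tested with a window (70.7%). By clade the counts were 0 of 10 in A, 3 of 8 in B and 2 of 5 in C to I. The 5 were SERPINB1 (27 CpG), SERPINB5 (16), SERPINB9 (35), SERPINE2 (31 in the richer of 2 windows) and SERPINH1 (28 in both windows).

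Called changes were found in serpins with few CpG and in serpins with more. Of the 4 genes called higher with a window, 1 was CpG-dense, namely SERPINB5, whose observed over expected ratio of 0.602 was just past the limit. SERPINA1 had 12 CpG in the richer of 2 windows and SERPINB8 had 9, and SERPIND1, with the largest rise, had 2. Both genes called lower with a window, SERPINA3 (3 CpG) and SERPINA5 (9 CpG), were not dense. The other 4 dense serpins, SERPINB1, SERPINB9, SERPINE2 and SERPINH1, were not called. Among all genes tested with a window, 69.9% of those called higher, 81.9% of those called lower and 68.3% of those not called were dense. These counts describe sequence only, and methylation was not measured here.

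**Figure D4:**
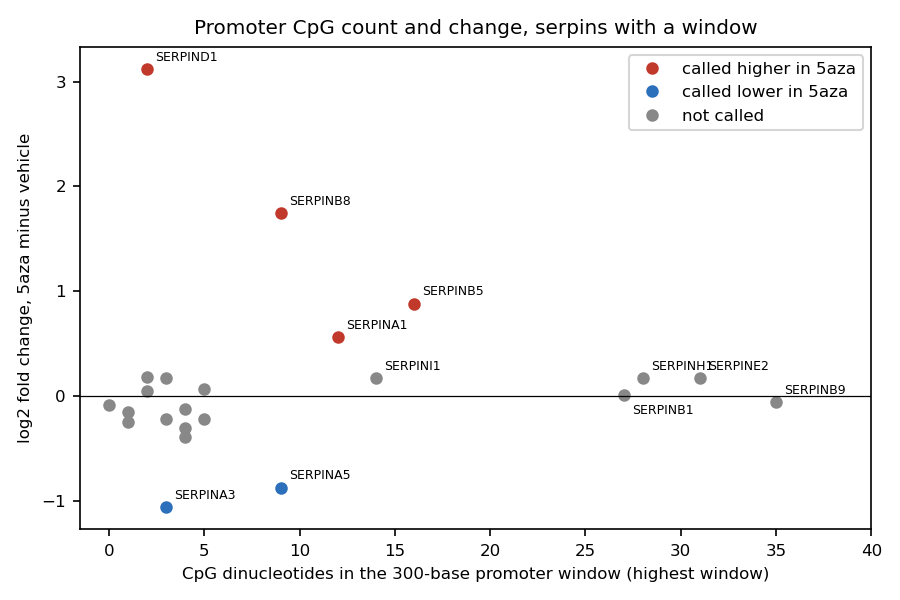
Number of CpG in the 300-base promoter window (horizontal axis, the richest window of a gene) against the log2 fold change of 5aza minus vehicle (vertical axis) for the 23 serpins with a window, coloured by call. SERPIND1 sits at 2 CpG and a change of 3.12, and the 4 genes with over 20 CpG, SERPINB1, SERPINB9, SERPINE2 and SERPINH1, sit near 0.

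Proteases that serpins act on were then examined with the rest of their pathways. Plasmin dissolves fibrin and matrix and is made from plasminogen by tissue (PLAT) and urokinase (PLAU) activators. Of 11 genes of the plasminogen activation list, 3 were called higher and 2 lower, beside 12.4% and 15.6% of all genes. PLAT stood at 10.01 and 10.13 on the 5aza arrays, against 9.13 and 9.13 on the vehicle arrays (change 0.94, SE 0.12, limma adjusted p = 0.00170). PLAU went the other way, at 8.38 and 8.39 on the 5aza arrays, against 9.26 and 9.28 on the vehicle arrays (change -0.88, SE 0.11, limma adjusted p = 0.00191). The collagen receptor MRC2 (change 0.80) and the annexin partner S100A10 (change 0.47) were higher, and the plasminogen receptor PLGRKT was lower (change -0.78). With the arrays centred on housekeeping genes 4 genes of the list were higher and 1 lower, PLGRKT losing its call. The call of S100A10 was lost without 5aza replicate 1, vehicle replicate 1 or vehicle replicate 2, which left 2 genes higher. The urokinase receptor PLAUR was not called (change 0.11, limma adjusted p = 0.561), and plasminogen itself (PLG) stayed under 5 on every array.

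Coagulation, contact and complement genes, the setting of SERPINC1, SERPIND1 and SERPING1, also moved both ways. Of 22 genes, 3 were called higher and 4 lower, beside 12.4% and 15.6% of all genes. The Kunitz-type inhibitors TFPI, which blocks the tissue factor complex, and TFPI2 diverged. TFPI2 stood at 6.61 and 6.49 on the 5aza arrays, against 3.80 and 4.17 on the vehicle arrays (5.94-fold higher). TFPI stood at 6.98 and 6.68 on the 5aza arrays, against 8.79 and 8.60 on the vehicle arrays (3.63-fold lower). Their SE was 0.15 for both, with limma adjusted p of 0.000245 or less. Tissue factor itself (F3) was higher (change 0.77), as was the complement protease C1S (change 1.36). PROS1, the cofactor protein S (change -1.47), factor X (F10, change -0.87) and C1R, the partner of C1S (change -0.45), were lower. The call of C1R was lost when either vehicle array was left out. It was also lost with the arrays centred on housekeeping genes, where 5 genes of the list were higher and 3 lower. The thrombin gene F2 stood at 3.69 and 3.90 on the 5aza arrays, against 3.76 and 3.61 on the vehicle arrays, and was not called.

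**Figure D5:**
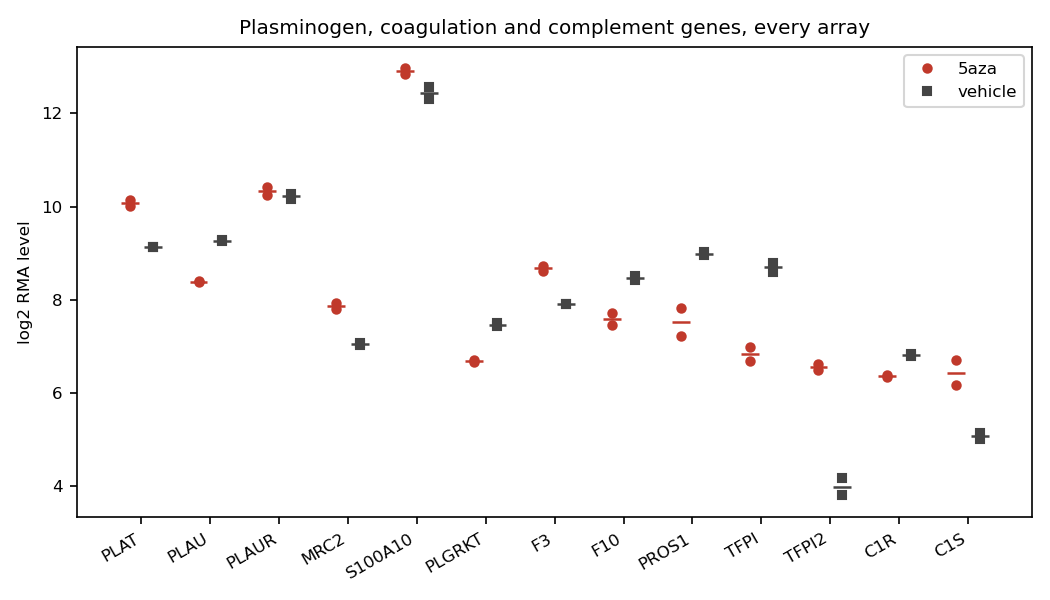
Log2 RMA level (vertical axis) of genes of plasminogen activation, coagulation and complement on every array, 5aza as red circles and vehicle as dark squares, with a line at each group's mean of 2 arrays. PLAT and PLAU move in opposite directions, as do TFPI2 (6.61 and 6.49 in 5aza, 3.80 and 4.17 in vehicle) and TFPI, and PLAUR overlaps between groups.

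Granule, trypsin-like and lysosomal proteases gave the following counts. The granule list held 11 genes, of which PRF1 is not a protease. In limma's test 2 were called higher and 0 lower, beside 12.4% and 15.6% of all genes. At an unadjusted p under 0.05, 2 were lower. The rises were PRF1, the pore-forming perforin, at 11.23 and 11.33 on the 5aza arrays, against 8.04 and 8.08 on the vehicle arrays (9.33-fold higher), and granzyme M (GZMM, change 1.29, SE 0.23, limma adjusted p = 0.00685). Granzyme B, the target of SERPINB9, was not called (GZMB, change -0.15, limma adjusted p = 0.434), nor were the elastase gene ELANE (change 0.31) and CTSG (change -0.18), targets of SERPINA1, SERPINA3 and SERPINB1. Of 20 membrane and trypsin-like protease genes, 1 was higher and 4 lower, beside 12.4% and 15.6% of all genes. The 20 include PRSS58, which was matched to the listed symbol PRSS1 and was not called. PRSS1 itself was not among the genes tested. The rise was of FURIN, the convertase that SERPINB8 can inhibit, at 8.90 and 9.20 on the 5aza arrays, against 8.13 and 8.32 on the vehicle arrays (change 0.83, SE 0.15, limma adjusted p = 0.00717), and this call was lost when vehicle replicate 1 was left out, with 0 higher. TMPRSS4 (change -1.31), TMPRSS13 (change -0.78), prostasin (PRSS8, change -0.79) and TMPRSS6 (change -0.53) were lower. With the arrays centred on housekeeping genes 1 gene of the list was higher and 2 lower, TMPRSS13 and TMPRSS6 losing their calls. Without vehicle replicate 1 the falls numbered 2, PRSS8 and TMPRSS6 losing their calls, and TMPRSS6 was also not called without 5aza replicate 1 or vehicle replicate 2.

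Of 14 kallikrein genes, 4 were called higher and 1 lower, beside 12.4% and 15.6% of all genes. The rises were led by KLK15 (3.09-fold) and KLK5 (2.62-fold), followed by KLK10 (change 0.45) and KLK11 (change 0.58). KLK7 was called lower (change -0.45). With the arrays centred on housekeeping genes 5 kallikreins were higher and 0 lower, KLK7 losing its call. KLK10 and KLK11 were not called without 5aza replicate 2, vehicle replicate 1 or vehicle replicate 2, each of which left 2 genes higher, and KLK7 was not called without 5aza replicate 1, vehicle replicate 1 or vehicle replicate 2. Of 15 cathepsin genes, 4 were higher and 3 lower, beside 12.4% and 15.6% of all genes. CTSF (change 1.07), CTSW (change 0.78), CTSL (change 0.73), a target of SERPINB3, and the legumain gene LGMN (change 0.50) were higher, and CTSH (change -0.83), CTSK (change -0.53) and CTSO (change -0.54) were lower. Leaving out vehicle replicate 1 removed the calls of CTSL and LGMN, while CTSK lost its call without 5aza replicate 1, vehicle replicate 1 or vehicle replicate 2 and CTSO without 5aza replicate 1, 5aza replicate 2 or vehicle replicate 2. LGMN was also not called without vehicle replicate 2. With the arrays centred on housekeeping genes 5 genes of the cathepsin list were higher and 1 lower, CTSK and CTSO losing their calls.

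Protease inhibitors of other families had 4 genes called higher and 2 lower of 35, where 12.4% and 15.6% of all genes were. WFDC2, a whey acidic protein family member, was higher by 1.06 (SE 0.17, limma adjusted p = 0.00521) under every alternative. PI15 (change 0.50), A2M (alpha-2-macroglobulin, change 0.45) and ITIH5 (change 0.42) were higher, and RECK, a membrane inhibitor of metalloproteases (change -0.84), and SPINK2 (change -0.49) were lower. Without vehicle replicate 1 the list had 1 rise and 0 falls, and without vehicle replicate 2 it had 1 of each. With the arrays centred on housekeeping genes there were 8 rises and 1 fall, SPINK2 losing its call.

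Genes that work with SERPINH1 on collagen folding and modification included 4 called higher and 2 lower of 22. Of all genes, 12.4% were called higher and 15.6% lower. The prolyl 3-hydroxylases P3H2 (change 0.62) and P3H1 (change 0.41), the procollagen peptidase ADAMTS2 (change 0.67) and PCOLCE, which enhances procollagen processing (change 0.43), were higher, and PLOD2, a lysyl hydroxylase (change -0.68), and CRTAP, the partner of P3H1 (change -0.52), were lower. Leaving out either vehicle array ended all 6 calls (0 higher and 0 lower). P3H1, PCOLCE and CRTAP also lost their calls without 5aza replicate 1. With the arrays centred on housekeeping genes there were 5 rises and 0 falls, PLOD2 and CRTAP losing their calls.

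Markers of cells in which serpins are best known were measured beside them. Their counts stand beside 12.4% of all genes called higher and 15.6% called lower. Of 13 hepatocyte markers, 1 was called higher (APOA2, change 0.60) and 1 lower (TTR, change -0.55), the mean level of the list being 3.78 to 3.84 on the 5aza arrays, against 3.80 to 3.87 on the vehicle arrays. Albumin (ALB) stood at 3.60 and 3.77 on the 5aza arrays, against 3.64 and 3.75 on the vehicle arrays. The calls of APOA2 and TTR were lost when either vehicle array was left out, and that of APOA2 also without 5aza replicate 1. With the arrays centred on housekeeping genes 3 hepatocyte markers were higher and 0 lower, TTR losing its call. Of 12 squamous keratinocyte markers, 4 were higher (DSG3, KRT5, KRT13 and KRT14, changes 1.36, 1.29, 1.29 and 0.69) and 0 lower in limma's test. At an unadjusted p under 0.05, 0 were lower. The list means were 5.17 to 5.26 on the 5aza arrays, against 4.79 to 4.82 on the vehicle arrays. KRT14 was not called without vehicle replicate 2.

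Of 14 leukocyte and platelet markers, 4 were higher (CD3D, CD14, MPO and CD3E, changes 1.79, 1.18, 0.98 and 0.92) and 0 lower in limma's test. At an unadjusted p under 0.05, 2 were lower, ITGA2B (change -0.45) and PPBP (change -0.48). Without the dimmest 33.3% of genes, 1 marker was higher and 1 lower. The list means were 4.96 to 5.01 on the 5aza arrays, against 4.67 to 4.76 on the vehicle arrays. CD3E was not called without vehicle replicate 1, and 1 marker was called lower without 5aza replicate 1 or 5aza replicate 2. Of 14 mesenchymal and endothelial markers, 6 were higher (THY1, COL6A3, PECAM1, ACTA2, COL1A1 and PDGFRA, changes 3.15, 2.64, 1.79, 0.63, 0.63 and 0.53) and 0 lower in limma's test. At an unadjusted p under 0.05, 0 were lower. The list means were 5.39 to 5.40 on the 5aza arrays, against 4.68 to 4.69 on the vehicle arrays. Without vehicle replicate 1 there were 3 mesenchymal rises and without vehicle replicate 2 there were 4, ACTA2, COL1A1 and PDGFRA losing their calls in the first fit and COL1A1 and PDGFRA in the second. The change of PECAM1 ran from 0.94 to 2.09 over all alternatives. Over all genes, 12.4% were called higher and 15.6% lower. The part of these markers in the serpin results was not tested.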

How the data were processed

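Gene expression was measured on 4 Affymetrix arrays, 2 of 5aza and 2 of vehicle HCT116 cells. The deposited values are log2 levels of probe sets, for which the authors used Affymetrix Expression Console and RMA, per the submitters' processing notes. No version or genome build was given in the sources used here. RMA corrects background, quantile normalizes and summarizes probes, so a shift in RNA content per cell is not visible, and folds of dim genes are usually compressed. The number of arrays limits the precision.

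Of 33297 probe sets, the platform annotation gave 1 symbol to 19181 and several to 2055, and 12061 are unnamed here. The brightest probe set by mean over the arrays stood for each of 17958 genes, with no filter. The test was limma's (version 3.58.1, R 4.3.3: lmFit, eBayes, no covariate, two-sided, Benjamini-Hochberg), checked on simulated data. For 1 gene alone, the smallest p of an exact permutation test with these arrays is 0.333.

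The members and lists were chosen with earlier results of these data known. Every serpin is named, with array values for called serpins and for uncalled serpins with a mean of 8 or more. Values of other uncalled genes were added after they were seen. In each list up to 4 called genes with the smallest p are named, plus all calls of a direction with 5 or fewer. Promoter windows and gene order come from RefSeq (GRCh38.p14). The alternatives were 1 array left out, a replicate block, 2 other scalings, a filter on the dimmest 33.3% of genes, another gene summary, another variance model and 2 stricter thresholds.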

Additional observations from a re-analysis of the deposited data

How the results depend on the processing

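Over the 12 alternatives, 317 of 332 single-serpin results kept their side of the threshold, 12 lost a call, 3 gained one and 0 called serpins changed direction. Some of these results had little or no room to differ from the main fit. Each serpin has 1 probe set, so the other gene summary left every serpin change as it was. The 2 stricter thresholds could not add a call. All 12 losses fell on the 8 called serpins, 5 of them on SERPINC1 and 4 on SERPINA1. SERPIND1, SERPINB8 and SERPINA3 passed under every alternative. With 1 array left out, clade A serpins higher ranged from 0 to 1 and clade C to I serpins lower from 0 to 2; the cause was not tested. The same replicate numbers do not show that samples were paired: with 2 pairs, the replicate differences of the groups correlated at 0.27 over genes. With the replicate block the serpins numbered 5 higher and 3 lower as before, and over all genes 2805 rose and 3834 fell. Centring on 21 housekeeping genes moved the median of all genes by 0.27, so that 3677 genes rose and 969 fell, against 2229 and 2794 as deposited. With that centring clade C to I serpins lower numbered 0 and the median serpin change was 0.21, close to the 0.20 of all genes. Without the dimmest 33.3% of genes, clade C to I serpins lower were 0, since the filter removes SERPINC1, and the median serpin change was 0.18 over the serpins left. At an adjusted p under 0.01, clade A serpins higher and clade C to I serpins lower were 0. At a 2-fold minimum, 2 serpins were higher and 1 lower: for clade A 0 and 1, for clade B 1 higher, and for clades C to I 1 and 0. Over all genes 1298 rose and 1255 fell at the stricter adjusted p, and 907 and 470 at the 2-fold minimum. With vehicle replicate 1 left out there were 1267 rises and 1196 falls, and with vehicle replicate 2 left out 1335 and 1237. Signal over background was not assessed, since the deposited values come without detection calls.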
